A study of Homo sapiens with 18 samples.

Results

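The genes described here are 10 genes of the lipid droplet: PLIN2, PLIN3 and HILPDA on its surface, LPIN1, DGAT1 and DGAT2 in the synthesis of its triglyceride, PNPLA2, ABHD5 and LIPE in its breakdown, and LIPG, a lipase outside the cell. They were taken by symbol from a list that was chosen with earlier results of these data known. All 10 were found among the 60709 genes with counts and passed the filter on low counts. The RNA came from MDA-MB-231, a line of triple-negative breast cancer, in 18 libraries that form 6 groups of 3. A subline with a hairpin that targets IGFBP6 (sh-IGFBP6) and one with a control hairpin that targets luciferase (sh-LUC) were each kept for 24 h with 2.5 µM erastin, with 200 µM docosahexaenoic acid (DHA), or with the vehicle of 0.5% DMSO and 0.5% ethanol. Erastin blocks cystine uptake and induces ferroptosis, a death by lipid peroxidation, and DHA is a polyunsaturated fatty acid. The labels do not say whether the 3 samples of a group were separate cultures, nor whether a hairpin line is 1 clone, so the p-values cover the spread among these libraries alone, and that spread may be technical.

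A lipid droplet is a core of triglyceride and sterol esters under a phospholipid monolayer that carries coat proteins. Fatty acids enter the core through a chain of acyltransferases and the phosphatase lipin, with the diacylglycerol acyltransferases at the last step. They leave it through adipose triglyceride lipase, hormone-sensitive lipase and monoglyceride lipase in turn. In cells given an excess of fatty acid, droplets store what would otherwise sit in membranes, and polyunsaturated chains are those most readily peroxidised.

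17 of the libraries held 2708143 to 7977429 counts, with 0.0349% to 0.504% of them on the mitochondrial ribosomal RNAs. Replicate 3 of sh-IGFBP6 with erastin stood apart, with 609936 counts and 54.4% of them on those RNAs, so that 1 count there is worth 3.81 CPM, the unit of level used here, which scales counts by library size with TMM factors. With scaling by library size only, 1 count there is worth 1.64 CPM. The called changes of the 10 genes that use this library are given without it below, and levels without it were computed after the data had been seen. IGFBP6 had 0.420 to 3.81 CPM in the 9 sh-IGFBP6 libraries and 12.3 to 20.9 CPM in the 9 sh-LUC libraries. Of 7 adipocyte markers, which together reached at most 2.16 CPM in any library, 1 had no count at all. The 5 genes known to mark MDA-MB-231 summed to 3297 to 3884 CPM in the sh-IGFBP6 libraries and 4848 to 5265 CPM in the sh-LUC libraries. The 4 luminal markers listed as low in that line summed to 13.2 to 30.5 CPM.

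Promoter sequences from RefSeq (GRCh38.p14) were matched for 7 of the 10 genes: PLIN2, PLIN3, PNPLA2, ABHD5, LIPE, LPIN1 and LIPG. The 250 bases before the annotated start are shown for PLIN2, which rose most of the 10 with both compounds; for PLIN3, its coat paralogue; for PNPLA2, the lipase whose access to the core the coat controls; and for LIPG, which differed most between the lines with vehicle. They are chr9:19127493-19127742 (minus strand), chr19:4867668-4867917 (minus strand), chr11:818664-818913 (plus strand) and chr18:49561807-49562056 (plus strand), and capitals mark motif matches on either strand.
PLIN2: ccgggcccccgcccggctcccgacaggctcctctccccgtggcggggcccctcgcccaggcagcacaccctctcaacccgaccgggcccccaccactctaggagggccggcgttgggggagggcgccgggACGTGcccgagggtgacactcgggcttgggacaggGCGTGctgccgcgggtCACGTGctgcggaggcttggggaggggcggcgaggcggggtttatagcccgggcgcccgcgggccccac
PLIN3: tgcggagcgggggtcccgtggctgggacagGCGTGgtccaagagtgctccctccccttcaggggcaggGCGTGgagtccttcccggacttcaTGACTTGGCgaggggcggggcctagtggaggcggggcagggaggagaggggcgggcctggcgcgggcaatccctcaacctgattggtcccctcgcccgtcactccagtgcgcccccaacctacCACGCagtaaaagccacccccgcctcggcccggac
PNPLA2: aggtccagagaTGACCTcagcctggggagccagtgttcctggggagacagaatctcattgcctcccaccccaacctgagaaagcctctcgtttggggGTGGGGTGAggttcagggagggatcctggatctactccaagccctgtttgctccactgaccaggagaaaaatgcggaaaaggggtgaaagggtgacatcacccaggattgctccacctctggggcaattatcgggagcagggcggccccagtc
LIPG: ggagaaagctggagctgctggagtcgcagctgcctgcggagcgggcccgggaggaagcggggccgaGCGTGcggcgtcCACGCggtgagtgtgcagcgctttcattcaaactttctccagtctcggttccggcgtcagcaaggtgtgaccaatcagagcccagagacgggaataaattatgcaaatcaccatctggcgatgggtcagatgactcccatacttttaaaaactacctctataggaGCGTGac

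The PLIN2 window held 4 matches to the core of the hypoxia response element (ACGTG or GCGTG, both strands), 2 of which lie within 1 match to the E-box CACGTG, whose letters contain the core. That core is common: 43.1% of 27305 RefSeq promoters of the same length hold it, and so do the windows of PLIN3, LIPG and ABHD5. The E-box was found in 6.49% of promoters and, among the 7, in PLIN2 alone. PLIN3 held the antioxidant response element core TGACNNNGC, present in 11% of promoters. PNPLA2 held 2 matches, both on the strand opposite to the gene. These were the sterol regulatory element TCACCCCAC, present in 0.348% of promoters, and the nuclear receptor site AGGTCA, present in 12.1%. The full peroxisome proliferator response element AGGTCANAGGTCA (0.0183% of promoters) and the amino acid response letters TTGCATCA (0.82%) were in none of the 7 windows, and the LPIN1 and LIPE windows held none of the motifs searched. A match is a match of letters in this window only.

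Per kilobase of merged exon, PNPLA2 and PLIN3 were the most abundant of the 10, with means over all libraries of 41.0 and 39.1 CPM per kb, followed by PLIN2 with 24.3 and LPIN1 with 10.7. DGAT1 had 8.36, ABHD5 6.12, HILPDA 3.67, LIPE 1.96 and LIPG 1.56 CPM per kb, and DGAT2 was lowest with 0.310. DGAT1 was thus the more abundant of the 2 final acyltransferases, and DGAT2 rested on 0 to 27 counts per library. The group means of LIPG spanned 70.6-fold and those of PLIN2 6.24-fold, while the other 8 genes spanned 1.43-fold (LIPE) to 2.89-fold (DGAT2). The lowest means of LIPG and DGAT2, both in sh-IGFBP6 cells with DHA, rest on 12 and 15 counts, so these 2 spans are rough. Without the shallow library the span of DGAT1 was 1.77-fold instead of 2.47-fold, and that of LIPE 1.39-fold. In bulk RNA, fewer cells with a transcript and less of it per cell cannot be told apart.

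**Figure D1:**
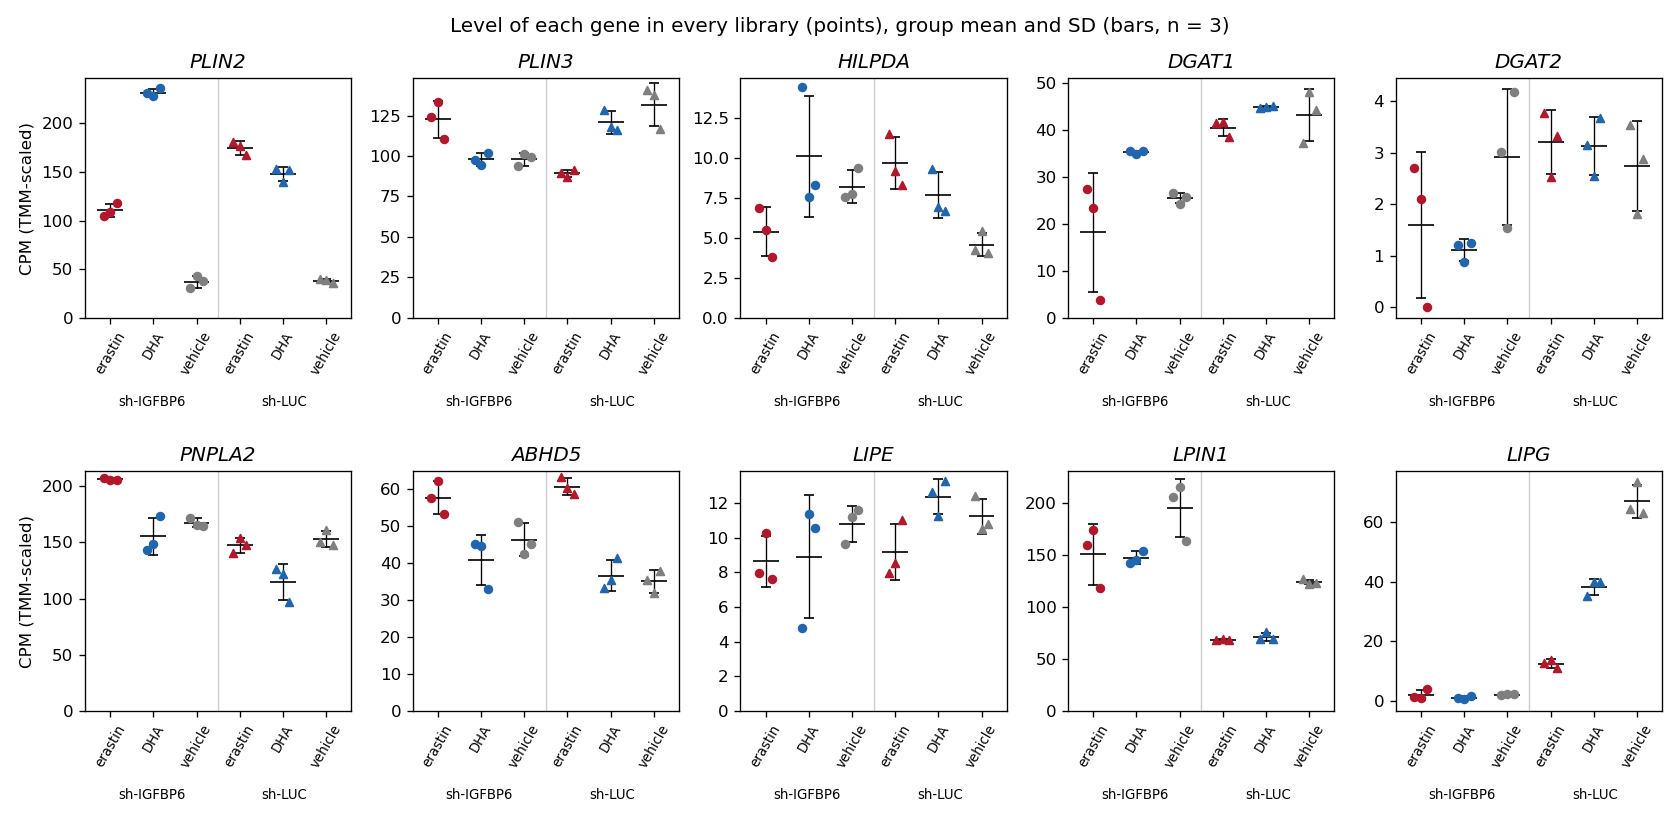
Level of each gene in CPM (vertical axis, linear, 1 panel per gene with its own scale) in every library, by treatment within sh-IGFBP6 (circles) and sh-LUC (triangles); bars show the group mean and SD of 3 libraries. PLIN2 lies above the vehicle libraries in all 4 treated groups, and LIPG is at 0.436 to 3.81 CPM in sh-IGFBP6 cells against 10.9 to 73.3 CPM in sh-LUC cells.

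Changes against vehicle are given on the log2 scale with a standard error (SE). A gene was called where the p of the quasi-likelihood test of edgeR, adjusted over the 15189 genes tested, was under 0.05. With erastin in sh-IGFBP6 cells 5 of the 10 genes were called, against 29.0% of all genes tested. Of these 4 rose, against 14.7% of all genes, and 1 fell, against 14.3%. With DHA in sh-IGFBP6 cells 5 of the 10 were called, against 34.2% of all genes, 2 of them higher (17.4% of all genes) and 3 lower (16.8%). DGAT2 and LIPG, among the lower, did not pass the filter when only those groups were fitted, and 3 of 8 were then called. With erastin in sh-LUC cells 6 of the 10 were called, against 45.9% of all genes, 3 of them higher (21.4% of all genes) and 3 lower (24.4%). With DHA in sh-LUC cells 5 of the 10 were called, against 16.8% of all genes, 2 of them higher (7.14% of all genes) and 3 lower (9.63%). The median size of change over the 10 genes was 0.34, 0.31, 0.67 and 0.30 in these comparisons, against 0.24, 0.25, 0.32 and 0.17 over all genes. The comparisons within a line share their vehicle libraries. When the shallow library was left out, the same 5 genes were called with erastin in sh-IGFBP6 cells, PLIN2 at 1.50, PLIN3 at 0.39, PNPLA2 at 0.31, ABHD5 at 0.38 and LPIN1 at -0.23 (largest edgeR adjusted p = 0.00789). HILPDA at -0.37, DGAT1 at 0.02 and LIPG at -1.05 were not called there either.

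**Figure D2:**
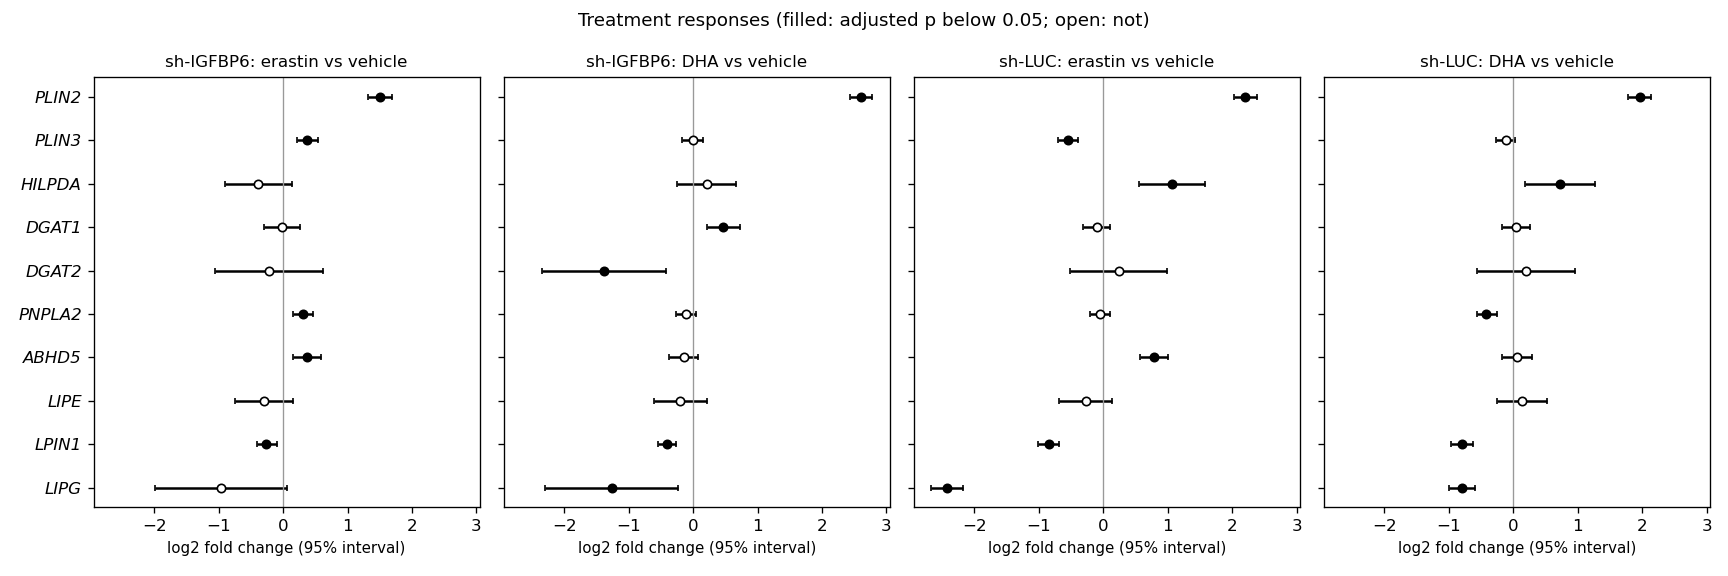
Log2 fold change of each gene against vehicle (horizontal axis, same scale in each panel) with its 95% interval, for erastin and DHA in sh-IGFBP6 and sh-LUC cells; filled points have an edgeR adjusted p below 0.05. PLIN2 and LPIN1 are filled in all 4 panels, on opposite sides of 0, and LIPE in none.

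PLIN2 (chr9:19108375-19149290, minus strand, GRCh38), which encodes perilipin 2, the main droplet coat protein of cells other than adipocytes, rose with both compounds in both lines. In sh-IGFBP6 cells it had 104.5, 109.0 and 118.1 CPM with erastin and 231.0, 228.2 and 236.1 CPM with DHA, against 30.7, 43.0 and 37.7 CPM with vehicle. The sh-LUC libraries had 181.4, 176.9 and 167.1 CPM with erastin and 152.7, 139.3 and 151.9 CPM with DHA, against 39.6, 38.8 and 36.2 CPM with vehicle. Every treated library lay above every vehicle library. The log2 fold changes in sh-IGFBP6 cells were 1.50 with erastin (SE 0.09, edgeR adjusted p = 2.8e-31) and 2.61 with DHA (SE 0.08, edgeR adjusted p = 4.9e-59). In sh-LUC cells they were 2.20 with erastin (SE 0.08, edgeR adjusted p = 3.6e-50) and 1.96 with DHA (SE 0.08, edgeR adjusted p = 1.3e-43).

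The vehicle groups of the 2 lines overlapped in PLIN2, and the treated groups did not. With vehicle the means were 37.1 ± 6.15 CPM in sh-IGFBP6 cells and 38.2 ± 1.80 CPM in sh-LUC cells (SD, n = 3 each), and the difference was -0.01 with a 95% interval of -0.24 to 0.22. The rise with erastin was smaller in sh-IGFBP6 than in sh-LUC cells (difference of log2 fold changes -0.70, SE 0.13, edgeR adjusted p = 3.5e-06), and the rise with DHA was larger (0.66, SE 0.12, edgeR adjusted p = 8.6e-06). DHA against erastin was accordingly 1.11 in sh-IGFBP6 cells (SE 0.07, edgeR adjusted p = 5.7e-28) and -0.24 in sh-LUC cells (SE 0.06, edgeR adjusted p = 2.6e-04). From low to high the 6 groups ran sh-IGFBP6 vehicle, sh-LUC vehicle, sh-IGFBP6 erastin, sh-LUC DHA, sh-LUC erastin and sh-IGFBP6 DHA, and of these neighbours the 2 vehicle groups alone overlapped. Without the shallow library the erastin change in sh-IGFBP6 cells was 1.50 and DHA against erastin 1.10. The 2 line differences were -0.84 (adjusted p = 0.0621) and 0.54 (0.323) with scaling by library size only, and DHA against erastin in sh-LUC cells was -0.08 (0.780).

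PLIN3 (chr19:4838341-4867768, minus strand) encodes perilipin 3, a coat protein that is soluble in the cytosol and moves onto young droplets. Its libraries had 124.4, 133.1 and 110.5 CPM with erastin, 97.3, 94.3 and 102.1 CPM with DHA and 93.7, 101.4 and 99.2 CPM with vehicle in sh-IGFBP6 cells. In sh-LUC cells they had 89.6, 87.3 and 91.5 CPM with erastin, 128.7, 117.7 and 115.9 CPM with DHA and 140.8, 138.0 and 116.4 CPM with vehicle. The erastin libraries lay above all vehicle libraries in sh-IGFBP6 cells and below them all in sh-LUC cells, while the DHA and vehicle libraries overlapped in both lines. PLIN3 rose by 0.37 with erastin in sh-IGFBP6 cells (SE 0.08, edgeR adjusted p = 2.7e-05) and fell by 0.55 in sh-LUC cells (SE 0.07, edgeR adjusted p = 2.1e-11), a difference between lines of 0.92 (SE 0.10, edgeR adjusted p = 3.9e-13). With DHA it was not called in either line, at -0.01 in sh-IGFBP6 cells (95% interval -0.17 to 0.15) and -0.12 in sh-LUC cells (-0.27 to 0.03). With vehicle it was 0.41 lower in log2 units in sh-IGFBP6 than in sh-LUC cells, a log2 fold change of -0.41 (SE 0.07, edgeR adjusted p = 4.1e-07). With scaling by library size only, the erastin change in sh-IGFBP6 cells was 0.09 (adjusted p = 0.788), the line difference 0.76 (0.0565) and the untreated difference -0.32 (0.145).

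The balance of the 2 coat transcripts therefore moved. Per kilobase, the ratio of PLIN2 to PLIN3 was 0.503 ± 0.0767 with erastin and 1.31 ± 0.0303 with DHA in sh-IGFBP6 cells, against 0.209 ± 0.0266 with vehicle (SD, n = 3 each). The erastin mean without the shallow library was 0.459. In sh-LUC cells it was 1.08 ± 0.0640 with erastin and 0.679 ± 0.0401 with DHA, against 0.161 ± 0.00941 with vehicle. PLIN2 was thus the more abundant transcript per kilobase in the DHA libraries of sh-IGFBP6 and the erastin libraries of sh-LUC, and the less abundant in every library of the other 4 groups. This ranking depends on the merged exon lengths, 5086 bases for PLIN2 and 2813 for PLIN3, which may differ from the transcripts present. In CPM, not divided by length, the PLIN2 mean was also above that of PLIN3 with DHA in sh-LUC cells (148.0 against 120.7). With erastin in sh-IGFBP6 cells it was below (110.5 against 122.7).

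HILPDA (chr7:128455849-128458418, plus strand) encodes a small droplet protein that is induced by hypoxia and inhibits adipose triglyceride lipase. It was low, with 1 to 79 counts per library. The sh-LUC libraries had 11.5, 9.19 and 8.31 CPM with erastin and 9.30, 6.95 and 6.69 CPM with DHA, all above the 4.25, 5.41 and 4.07 CPM with vehicle. In sh-IGFBP6 cells it had 6.89, 5.46 and 3.81 CPM with erastin, the last from 1 count, and 14.4, 7.56 and 8.28 CPM with DHA, against 7.53, 7.71 and 9.35 CPM with vehicle. It rose in sh-LUC cells by 1.07 with erastin (SE 0.23, edgeR adjusted p = 6.0e-05) and by 0.72 with DHA (SE 0.25, edgeR adjusted p = 0.0289). In sh-IGFBP6 cells it was not called, at -0.39 with erastin (95% interval -0.90 to 0.13) and 0.21 with DHA (-0.25 to 0.66), and the erastin responses differed between lines by -1.46 (SE 0.34, edgeR adjusted p = 3.2e-04). With vehicle it was higher in sh-IGFBP6 than in sh-LUC cells by 0.84 (SE 0.26, edgeR adjusted p = 0.00340). The DHA call in sh-LUC cells did not hold without vehicle replicate 1 (adjusted p = 0.0870), vehicle replicate 3 (0.178) or DHA replicate 1 (0.137), nor with DESeq2 (0.127) or scaling by library size only (0.0637).

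LPIN1 (chr2:11677595-11827409, plus strand), which encodes lipin 1, the phosphatidate phosphatase that makes diacylglycerol and also acts in the nucleus on transcription, fell in all 4 treatment comparisons. Its sh-LUC libraries had 68.0, 69.0 and 68.7 CPM with erastin and 69.6, 75.9 and 68.8 CPM with DHA, against 126.7, 122.6 and 122.9 CPM with vehicle. In sh-IGFBP6 cells it had 160.2, 173.9 and 118.1 CPM with erastin and 142.7, 145.8 and 154.3 CPM with DHA, against 206.0, 216.1 and 163.9 CPM with vehicle. The treated libraries lay below all vehicle libraries in these comparisons except with erastin in sh-IGFBP6 cells, where the groups overlapped. The log2 fold changes in sh-IGFBP6 cells were -0.26 with erastin (SE 0.07, edgeR adjusted p = 0.00306) and -0.41 with DHA (SE 0.07, edgeR adjusted p = 3.7e-07). In sh-LUC cells they were -0.85 with erastin (SE 0.08, edgeR adjusted p = 1.5e-18) and -0.79 with DHA (SE 0.08, edgeR adjusted p = 4.8e-16). The fall was smaller in sh-IGFBP6 cells by 0.60 with erastin (SE 0.10, edgeR adjusted p = 2.0e-06) and by 0.39 with DHA (SE 0.10, edgeR adjusted p = 0.00235). The erastin call in sh-IGFBP6 cells was lost without vehicle replicate 2 (-0.17, adjusted p = 0.106), and the line difference for DHA without sh-IGFBP6 vehicle replicate 3 (0.25, adjusted p = 0.0776). That line difference was also lost without a filter on low counts (0.29, edgeR adjusted p = 0.0780). With scaling by library size only, DHA in sh-IGFBP6 cells (-0.49, adjusted p = 0.0765) and both line differences (0.38 and 0.26, 0.483 and 0.710) were not called.

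With vehicle LPIN1 was higher in sh-IGFBP6 than in sh-LUC cells by 0.66 (SE 0.07, edgeR adjusted p = 2.0e-14). From low to high its groups ran sh-LUC erastin, sh-LUC DHA, sh-LUC vehicle, sh-IGFBP6 DHA, sh-IGFBP6 erastin and sh-IGFBP6 vehicle. The first and second overlapped, and so did the fourth with the fifth and the fifth with the sixth. All but 1 of the sh-IGFBP6 libraries lay above all sh-LUC libraries, the exception being replicate 3 with erastin.

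DGAT1 (chr8:144314584-144326910, minus strand) and DGAT2 (chr11:75759512-75801535, plus strand) encode unrelated enzymes that add the last fatty acid to diacylglycerol. DGAT1 had 27.3, 23.3 and 3.81 CPM with erastin in sh-IGFBP6 cells, the last from 1 count in the shallow library, 35.4, 34.9 and 35.4 CPM with DHA, and 26.5, 24.3 and 25.6 CPM with vehicle. Values in sh-LUC cells were 41.3, 41.6 and 38.4 CPM with erastin, 44.5, 44.7 and 45.0 CPM with DHA, and 37.2, 48.1 and 44.1 CPM with vehicle. The DHA libraries of sh-IGFBP6 lay above all their vehicle libraries, and the treated and vehicle libraries of sh-LUC overlapped. DGAT1 rose with DHA in sh-IGFBP6 cells by 0.47 (SE 0.12, edgeR adjusted p = 4.9e-04) and was not called in the other 3 treatment comparisons, whose values were -0.02 with erastin in sh-IGFBP6 cells, and -0.10 with erastin and 0.04 with DHA in sh-LUC cells. Its DHA responses differed between lines by 0.43 (SE 0.15, edgeR adjusted p = 0.0306), a call that was lost without any 1 of sh-LUC vehicle replicates 2 or 3, sh-IGFBP6 vehicle replicates 2 or 3, or sh-IGFBP6 DHA replicate 2 (adjusted p 0.0558 to 0.134). That call was also lost with DESeq2 (adjusted p = 0.191) and without a filter on low counts (edgeR adjusted p = 0.255). With vehicle DGAT1 was lower in sh-IGFBP6 than in sh-LUC cells, at -0.78 (SE 0.12, edgeR adjusted p = 4.1e-09). Its DHA rise was 0.39 (adjusted p = 0.0827) and the line difference 0.29 (0.514) with scaling by library size only.

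DGAT2 had 20, 10 and 0 counts with erastin, 4, 6 and 5 counts with DHA and 10, 8 and 17 counts with vehicle in sh-IGFBP6 cells, and 6 to 27 counts in the sh-LUC libraries. In CPM the DHA libraries of sh-IGFBP6 cells had 1.20, 0.873 and 1.25, below the vehicle libraries with 3.01, 1.54 and 4.18. Its log2 fold change with DHA there was -1.38 (SE 0.44, edgeR adjusted p = 0.00913). That call was lost without vehicle replicate 3 (adjusted p = 0.139) or DHA replicate 2 (0.0826). With only the groups of that comparison fitted, DGAT2 did not pass the filter on low counts and was not tested. At this depth the 95% intervals for DGAT2 in sh-LUC cells reached from -0.52 to 0.99 with erastin and from -0.57 to 0.95 with DHA.

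PNPLA2 (chr11:818902-825573, plus strand) encodes adipose triglyceride lipase, which takes the first fatty acid from triglyceride, and ABHD5 (chr3:43690108-43734371, plus strand) encodes its coactivator. PNPLA2 had 207.7, 206.0 and 205.7 CPM with erastin and 143.3, 148.7 and 173.9 CPM with DHA in sh-IGFBP6 cells, against 171.9, 165.8 and 164.9 CPM with vehicle. Those of sh-LUC had 141.0, 153.9 and 147.4 CPM with erastin and 126.0, 121.6 and 96.5 CPM with DHA, against 150.7, 160.8 and 147.3 CPM with vehicle. Erastin libraries stood above vehicle in sh-IGFBP6 cells alone, and DHA libraries stood below vehicle in sh-LUC cells alone. PNPLA2 rose with erastin in sh-IGFBP6 cells by 0.31 (SE 0.07, edgeR adjusted p = 3.2e-04), though with scaling by library size only the value was -0.02 (adjusted p = 0.961). It fell with DHA in sh-LUC cells by 0.42 (SE 0.07, edgeR adjusted p = 1.0e-06), and the value under that scaling was -0.36 (adjusted p = 0.445). The responses differed between lines, though not with library size scaling (adjusted p 0.861 for erastin and 0.841 for DHA), by 0.36 for erastin (SE 0.10, edgeR adjusted p = 0.00327) and 0.31 for DHA (SE 0.10, edgeR adjusted p = 0.0154). The second was lost without sh-LUC vehicle replicate 2, sh-IGFBP6 vehicle replicate 3, sh-LUC DHA replicate 3 or sh-IGFBP6 DHA replicate 3 (0.20 to 0.27, adjusted p 0.0569 to 0.139). It was also lost with DESeq2 (0.29, adjusted p = 0.0727) and without a filter on low counts (0.21, edgeR adjusted p = 0.297).

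ABHD5 had 57.5, 62.2 and 53.3 CPM with erastin and 45.1, 44.5 and 32.9 CPM with DHA in sh-IGFBP6 cells, against 51.2, 42.4 and 45.3 CPM with vehicle. In the sh-LUC line the values were 63.2, 60.2 and 58.7 CPM with erastin and 33.2, 35.3 and 41.4 CPM with DHA, against 35.4, 31.9 and 37.9 CPM with vehicle. Erastin libraries lay above all vehicle libraries in both lines, and DHA libraries overlapped with vehicle in both. The rise with erastin was 0.37 in sh-IGFBP6 cells (SE 0.10, edgeR adjusted p = 0.00190) and 0.78 in sh-LUC cells (SE 0.10, edgeR adjusted p = 1.3e-11). The difference of -0.41 (SE 0.14, edgeR adjusted p = 0.0205) was lost without sh-LUC vehicle replicate 2, sh-IGFBP6 vehicle replicate 1 or sh-IGFBP6 erastin replicate 1 (adjusted p 0.0624 to 0.0940) and with DESeq2 (0.0683). The rise in sh-IGFBP6 cells was 0.20 (adjusted p = 0.392) and the difference -0.48 (0.148) with scaling by library size only. DHA left ABHD5 lower than erastin did, by a log2 fold change of -0.53 in sh-IGFBP6 cells (SE 0.10, edgeR adjusted p = 1.0e-05) and -0.72 in sh-LUC cells (SE 0.08, edgeR adjusted p = 2.4e-13). With vehicle ABHD5 was higher in sh-IGFBP6 than in sh-LUC cells by 0.38 (SE 0.11, edgeR adjusted p = 0.00162).

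LIPE (chr19:42401507-42427426, minus strand) encodes hormone-sensitive lipase, which acts mainly on diacylglycerol. Its libraries ranged from 4.81 to 13.2 CPM and 2 to 97 counts, and the treated groups overlapped with vehicle in all 4 comparisons. None of those 4 changes was called, with values of -0.29 and -0.20 for erastin and DHA in sh-IGFBP6 cells and -0.27 and 0.14 in sh-LUC cells. The widest of their 95% intervals was -0.74 to 0.15. DHA against erastin in sh-LUC cells was called at 0.42 (SE 0.15, edgeR adjusted p = 0.0167), but not without DHA replicate 3, erastin replicate 1 or erastin replicate 2 (adjusted p 0.0709 to 0.0992). Nor was it called with DESeq2 (adjusted p = 0.117).

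LIPG (chr18:49560699-49599182, plus strand) encodes endothelial lipase, a secreted phospholipase that acts mainly on high-density lipoproteins. With vehicle it had 1.81, 2.12 and 2.22 CPM (6, 11 and 9 counts) in sh-IGFBP6 cells and 64.4, 73.3 and 63.0 CPM (182, 244 and 263 counts) in sh-LUC cells. The 2 groups lay far apart, with a log2 fold change of -5.00 (SE 0.18, edgeR adjusted p = 3.1e-51) that ranged from -5.05 to -4.90 over the 26 other settings tried. Treated sh-LUC libraries had 12.8, 13.7 and 10.9 CPM with erastin and 35.0, 39.8 and 39.9 CPM with DHA, all below vehicle. The log2 fold changes were -2.42 with erastin (SE 0.11, edgeR adjusted p = 8.1e-41) and -0.80 with DHA (SE 0.09, edgeR adjusted p = 5.5e-12), and DHA against erastin was 1.63 (SE 0.11, edgeR adjusted p = 4.5e-27). From low to high its sh-LUC groups ran erastin, DHA and vehicle, with no overlap of neighbours.

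In sh-IGFBP6 cells LIPG had 8, 4 and 1 counts with erastin and 3, 3 and 6 counts with DHA. It was not called with erastin, at -0.97 (95% interval -1.99 to 0.06), and was called with DHA at -1.26 (SE 0.48, edgeR adjusted p = 0.0295). That call was lost without vehicle replicate 2 (-1.24, adjusted p = 0.0838), vehicle replicate 3 (-1.23, 0.0701) or DHA replicate 2 (-0.74, 0.317), without a filter on low counts (-1.29, 0.0652) and with scaling by library size only (-1.35, 0.0909). With only the groups of that comparison fitted, LIPG did not pass the filter on low counts and was not tested. It passed in the fit of all 6 groups through its sh-LUC libraries. The erastin responses differed between lines by 1.46 (SE 0.54, edgeR adjusted p = 0.0346), which was lost without any 1 of 7 libraries, among them erastin replicate 3 of sh-IGFBP6 (1.35, adjusted p = 0.0598), and with scaling by library size only (1.44, 0.163). That difference was also lost without a filter on low counts (1.41, edgeR adjusted p = 0.106).

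With vehicle, 6 of the 10 genes differed between the lines, against 64.6% of all genes tested. HILPDA, ABHD5 and LPIN1 were higher in sh-IGFBP6 cells, against 32.5% of all genes, and PLIN3, DGAT1 and LIPG lower, against 32.1%. The median size of that difference was 0.40 over the 10 genes and 0.55 over all genes. The erastin response differed between lines for 7 of the 10, against 26.2% of all genes, with 4 values above 0 (14.1% of all genes) and 3 below (12.0%). The DHA response differed for 5 of the 10, against 20.6%, with 4 values above 0 (10.4% of all genes) and 1 below (10.2%). Without replicate 3 of sh-IGFBP6 erastin the first count was 6, LIPG being the gene lost. Without sh-IGFBP6 vehicle replicate 3 the second count was 1, with PLIN2 the gene left. DHA and erastin differed in 7 of the 10 genes in sh-IGFBP6 cells, against 25.9% of all genes, with 3 higher (13.1%) and 4 lower (12.8%). In sh-LUC cells they differed in 6, against 50.2%, with 3 higher (26.0%) and 3 lower (24.2%).

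**Figure D3:**
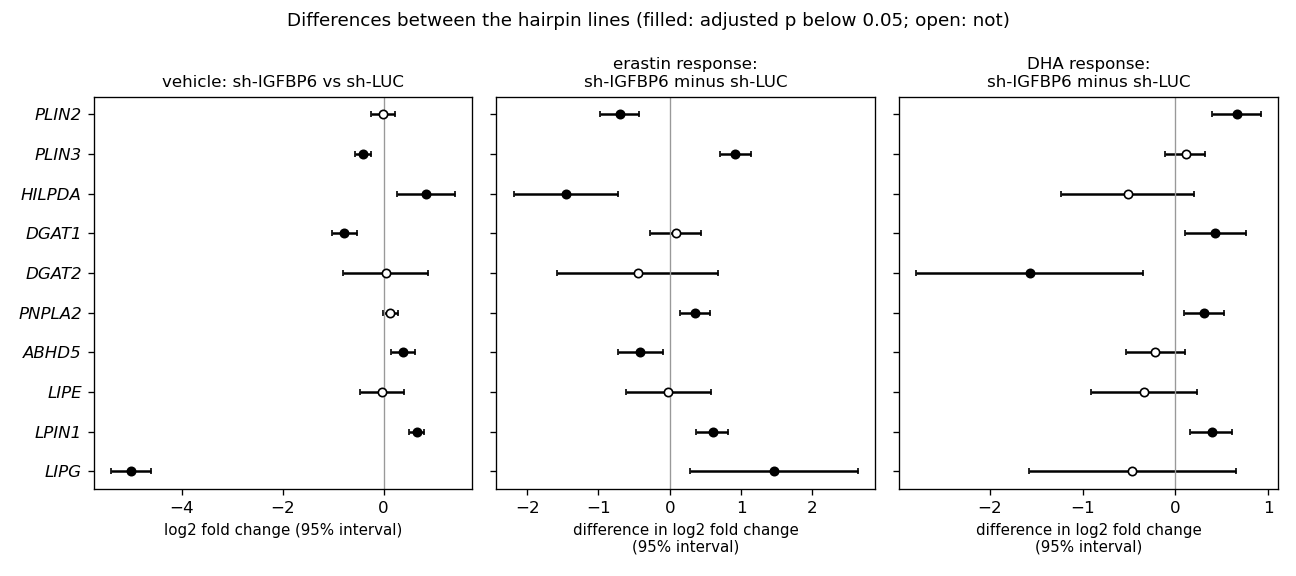
Differences between the lines for each gene with 95% intervals: sh-IGFBP6 over sh-LUC with vehicle (left), and the erastin and DHA log2 fold changes of sh-IGFBP6 minus those of sh-LUC (middle and right; each panel has its own scale). PLIN2 is at -0.01 in the left panel, at -0.70 in the middle one and at 0.66 in the right one.

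In sh-IGFBP6 cells, DHA against erastin was lower for PLIN3 at -0.39 (SE 0.07, edgeR adjusted p = 1.6e-05) and PNPLA2 at -0.42 (SE 0.07, edgeR adjusted p = 1.4e-06), and higher for DGAT1 at 0.49 (SE 0.12, edgeR adjusted p = 6.8e-04). HILPDA was called at 0.60 (SE 0.22, edgeR adjusted p = 0.0376) and DGAT2 at -1.16 (SE 0.46, edgeR adjusted p = 0.0498). The HILPDA call was lost without DHA replicate 1 or any 1 of the 3 erastin libraries (adjusted p 0.0548 to 0.369), with scaling by library size only (0.66, 0.0621), without a filter on low counts (0.106) and with DESeq2 (0.114), and that of DGAT2 under 18 of the 24 other settings in which it was tested. These values without the shallow library were -0.41 for PLIN3, -0.43 for PNPLA2, -0.55 for ABHD5, 0.44 for DGAT1 and -1.21 for DGAT2, all called, and that of LPIN1, -0.19, was then called too (edgeR adjusted p = 0.0395). In sh-LUC cells PLIN3 was higher with DHA than with erastin by 0.43 (SE 0.06, edgeR adjusted p = 5.8e-09) and PNPLA2 lower, at -0.36 (SE 0.06, edgeR adjusted p = 8.5e-07). With scaling by library size only, the PLIN3 value in sh-IGFBP6 cells was -0.18 (adjusted p = 0.607) and those of PNPLA2 -0.17 (0.679) in sh-IGFBP6 and -0.20 (0.486) in sh-LUC cells.

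Other genes of the droplet were read from 5 lists. Their counts stand beside the shares of all genes tested that rose or fell, which were 14.7% and 14.3% with erastin and 17.4% and 16.8% with DHA in sh-IGFBP6 cells, and 21.4% and 24.4% with erastin and 7.14% and 9.63% with DHA in sh-LUC cells. In the list of lipolysis and lipophagy, 9 of 12 genes were tested, and 4 fell with erastin in sh-IGFBP6 cells, 6 with DHA in sh-IGFBP6 cells, 6 with erastin in sh-LUC cells and 3 with DHA in sh-LUC cells. In these 4 comparisons 0 rose by edgeR, and 0 rose at an unadjusted p below 0.05 or with DESeq2. The list leaves out PNPLA2, ABHD5 and LIPE, described above. Of these, ABHD5 rose with erastin in both lines and PNPLA2 in sh-IGFBP6 cells, and PNPLA2 fell with DHA in sh-LUC cells. The medians of the list were -0.23, -0.41, -0.47 and -0.08, against 0.00, 0.00, -0.02 and 0.01 over all genes tested. MGLL, the monoglyceride lipase that ends the chain begun by PNPLA2, had 98.9 ± 8.23 CPM with erastin and 70.6 ± 1.54 with DHA, against 136 ± 3.85 with vehicle, in sh-IGFBP6 cells, and 97.1 ± 2.51 and 116 ± 2.39 against 158 ± 12.8 in sh-LUC cells (SD, n = 3 each). Without the shallow library its erastin change in sh-IGFBP6 cells was -0.40, that of PNPLA3 -1.16 and that of NCEH1 -0.64, all called. PNPLA3, a close relative of PNPLA2, had 2.76 ± 0.974 CPM with erastin against 5.07 ± 0.804 with vehicle in sh-IGFBP6 cells (fell by 1.14 on the log2 scale, SE 0.31, edgeR adjusted p = 0.00267) and 11.8 ± 1.44 against 23.3 ± 1.61 in sh-LUC cells (fell by 0.96, SE 0.14, edgeR adjusted p = 7.1e-09). LIPA, the acid lipase of the lysosome, fell with DHA by 0.68 in sh-IGFBP6 cells (SE 0.10, edgeR adjusted p = 2.0e-08) and by 0.32 in sh-LUC cells (SE 0.08, edgeR adjusted p = 8.6e-04). With erastin it fell by 0.61 in sh-LUC cells (SE 0.08, edgeR adjusted p = 2.1e-11) and was not called in sh-IGFBP6 cells, at -0.10 (SE 0.10, edgeR adjusted p = 0.517). The DHA call of LIPA in sh-LUC cells was lost without vehicle replicate 3 (-0.24, adjusted p = 0.0658) and with scaling by library size only (-0.26, 0.384), as was that of MGLL under that scaling (-0.40, 0.283). The counts of this list that fell were 4, 5, 5 and 0 with scaling by library size only, and 3, 5, 6 and 2 with DESeq2, in the same order.

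With vehicle, 2 of the 9 genes of that list were higher in sh-IGFBP6 cells (22.2%, against 32.5% of all genes) and 5 lower (55.6%, against 32.1%). NCEH1, a neutral cholesterol ester hydrolase, had 388 ± 16.3 CPM in sh-IGFBP6 cells and 129 ± 13.8 CPM in sh-LUC cells, at 1.58 (SE 0.06, edgeR adjusted p = 9.8e-47). LIPA was lower at -1.03 (SE 0.09, edgeR adjusted p = 1.6e-20) and PNPLA3 at -2.16 (SE 0.19, edgeR adjusted p = 1.7e-19). NCEH1 fell in sh-IGFBP6 cells by 0.65 with erastin (SE 0.06, edgeR adjusted p = 1.9e-16) and by 0.87 with DHA (SE 0.06, edgeR adjusted p = 3.2e-26). In sh-LUC cells it was lower with erastin at -0.22 (edgeR adjusted p = 0.00425) and not called with DHA, at 0.10 (0.331). Under library size scaling that erastin value was -0.32 and not called (edgeR adjusted p = 0.301).

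**Figure D4:**
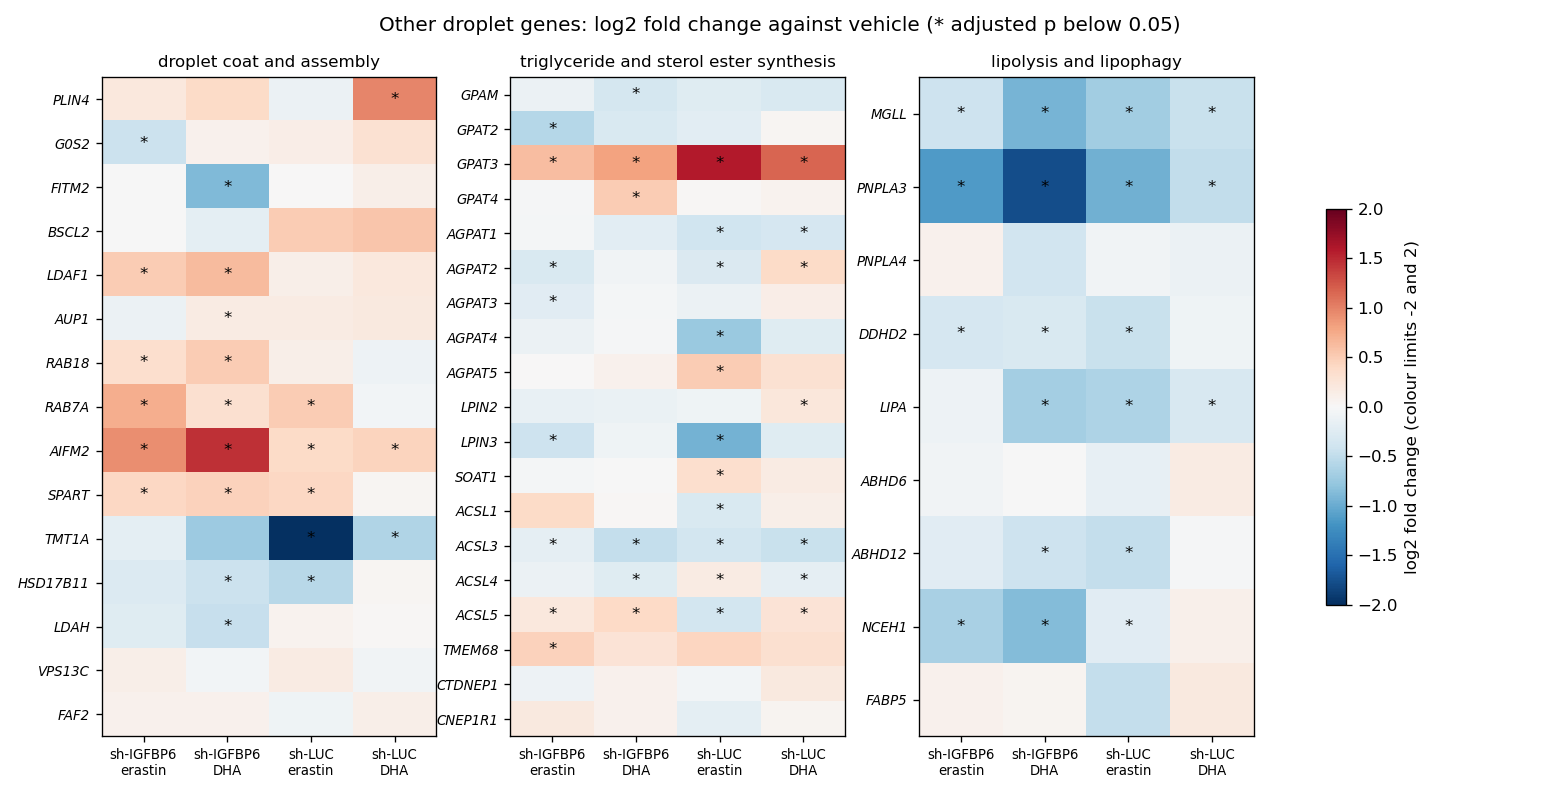
Log2 fold change against vehicle (colour, red higher, blue lower) of the tested genes of 3 lists in the 4 treatment comparisons; an asterisk marks an edgeR adjusted p below 0.05. Red cells with an asterisk are absent from the lipolysis panel, which leaves out PNPLA2, ABHD5 and LIPE, and GPAT3 is red with an asterisk in all 4 columns.

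In the list of droplet coat and assembly, 15 of 22 genes were tested. With erastin 5 rose and 1 fell in sh-IGFBP6 cells and 3 rose and 2 fell in sh-LUC cells, and with DHA 6 rose and 3 fell in sh-IGFBP6 cells and 2 rose and 1 fell in sh-LUC cells. As shares of the 15, those that rose were 33.3%, 20.0%, 40.0% and 13.3% in this order, and those that fell 6.67%, 13.3%, 20.0% and 6.67%. Over all genes those shares were 14.7%, 21.4%, 17.4% and 7.14%, and 14.3%, 24.4%, 16.8% and 9.63%. With library size scaling 2, 2, 6 and 2 were called in all, against 6, 5, 9 and 3. With the shallow library left out, 5 and 7 were called with erastin in sh-IGFBP6 and sh-LUC cells. AIFM2, known as FSP1, a droplet and plasma membrane protein that suppresses ferroptosis, had 59.9 ± 11.2 CPM with erastin and 79.0 ± 2.53 with DHA in sh-IGFBP6 cells, against 28.4 ± 2.00 with vehicle. Its log2 fold changes there were 0.93 (SE 0.10, edgeR adjusted p = 3.1e-13) and 1.46 (SE 0.09, edgeR adjusted p = 4.8e-28), and in sh-LUC cells 0.38 (SE 0.10, edgeR adjusted p = 9.0e-04) and 0.44 (SE 0.10, edgeR adjusted p = 3.0e-04). The erastin change was 0.92 in sh-IGFBP6 cells without the shallow library, and in sh-LUC cells it was 0.27 (adjusted p = 0.195) under library size scaling. With vehicle 7 of the 15 genes were higher in sh-IGFBP6 cells (46.7%, against 32.5% of all genes) and 6 lower (40.0%, against 32.1%). G0S2, an inhibitor of adipose triglyceride lipase, had 155 ± 18.3 CPM in sh-IGFBP6 cells and 11.9 ± 2.74 CPM in sh-LUC cells, at 3.70 (SE 0.21, edgeR adjusted p = 1.6e-10). PNPLA2 itself was not called in that comparison, at 0.13 (95% interval -0.02 to 0.29).

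In the list of triglyceride and sterol ester synthesis, 19 of 24 genes were tested. With erastin 3 rose and 5 fell in sh-IGFBP6 cells and 4 rose and 7 fell in sh-LUC cells, and with DHA 3 rose and 3 fell in sh-IGFBP6 cells and 4 rose and 3 fell in sh-LUC cells. As shares of the 19, those that rose were 15.8%, 21.1%, 15.8% and 21.1%, and those that fell 26.3%, 36.8%, 15.8% and 15.8%, in this order. Over all genes those shares were 14.7%, 21.4%, 17.4% and 7.14%, and 14.3%, 24.4%, 16.8% and 9.63%. With library size scaling 4, 6, 3 and 1 were called in all, against 8, 11, 6 and 7. With the shallow library left out, 2 rose with erastin and 5 fell with DHA in sh-IGFBP6 cells. GPAT3, an acyltransferase of the first step, had 44.4 ± 3.43 CPM with erastin and 51.6 ± 4.73 with DHA, against 29.6 ± 0.417 with vehicle, in sh-IGFBP6 cells, and 68.1 ± 5.46 and 50.8 ± 1.16 against 23.1 ± 3.37 in sh-LUC cells. Its log2 fold changes were 0.61, 0.81, 1.58 and 1.16 (SE 0.10 or 0.11, largest edgeR adjusted p = 2.6e-06). LPIN2, a paralogue of LPIN1, was not called in 3 of the 4 comparisons and was higher with DHA in sh-LUC cells, at 0.22 (SE 0.06, edgeR adjusted p = 0.00912), though not with library size scaling (0.27, adjusted p = 0.632). LPIN2 was, without the shallow library, also called with DHA in sh-IGFBP6 cells, at -0.16 (edgeR adjusted p = 0.0320). LPIN3, the third lipin, fell with erastin by 0.41 in sh-IGFBP6 cells (SE 0.15, edgeR adjusted p = 0.0305) and by 0.95 in sh-LUC cells (SE 0.12, edgeR adjusted p = 5.7e-12), and was not called with DHA. With vehicle AGPAT2, of the second step, was higher in sh-IGFBP6 cells at 1.15 (SE 0.10, edgeR adjusted p = 3.3e-19), and ACSL1, an activator of fatty acids, lower at -2.82 (SE 0.21, edgeR adjusted p = 2.1e-24).

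In the list of secreted lipases and their regulators, 4 of 10 genes were tested. With erastin 2 rose and 0 fell in sh-IGFBP6 cells, where 0 fell at an unadjusted p below 0.05 or with DESeq2, and 1 rose and 1 fell in sh-LUC cells, and with DHA 1 rose and 1 fell in each line. With library size scaling 1 gene was called with erastin in sh-IGFBP6 cells, and 1 with DHA in each line. ANGPTL4, a secreted inhibitor of lipoprotein lipase that can also bind endothelial lipase, had 19.1 ± 13.3 CPM with erastin and 71.2 ± 7.58 with DHA in sh-IGFBP6 cells, against 2.997 ± 1.07 with vehicle. The erastin mean rests on the shallow library, which had 34.3 CPM from 9 counts, and the mean of the other 2 was 11.6 CPM. Without it the erastin change was 1.99 (edgeR adjusted p = 7.3e-11). The sh-LUC means were 74.6 ± 4.85 and 163 ± 3.88, against 18.4 ± 3.73. The DHA rise was larger in sh-IGFBP6 cells by 1.39 (SE 0.27, edgeR adjusted p = 2.2e-05). ANGPTL4, like LIPG, was lower with vehicle in sh-IGFBP6 than in sh-LUC cells (-2.61, SE 0.24, edgeR adjusted p = 2.8e-17).

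In the list of transcription factors of lipid genes, all 18 were tested. With erastin 6 rose and 2 fell in sh-IGFBP6 cells and 5 rose and 8 fell in sh-LUC cells, and with DHA 4 rose and 8 fell in sh-IGFBP6 cells and 3 rose and 6 fell in sh-LUC cells. As shares of the 18, those that rose were 33.3%, 27.8%, 22.2% and 16.7%, and those that fell 11.1%, 44.4%, 44.4% and 33.3%, in this order. Over all genes those shares were 14.7%, 21.4%, 17.4% and 7.14%, and 14.3%, 24.4%, 16.8% and 9.63%. With library size scaling 2, 8, 5 and 2 were called in all, against 8, 13, 12 and 9. SREBF1, which encodes a sterol regulatory element binding protein, had 98.1 ± 22.3 CPM with erastin and 71.6 ± 6.33 with DHA, against 146 ± 3.63 with vehicle, in sh-IGFBP6 cells, and 134 ± 5.80 and 101 ± 10.4 against 242 ± 17.1 in sh-LUC cells. Its erastin change in sh-IGFBP6 cells was -0.43 (edgeR adjusted p = 1.9e-06), and -0.40 without the shallow library. ATF4, a factor of the integrated stress response, rose by 0.51 and 0.48 in sh-IGFBP6 cells and by 1.20 and 0.52 in sh-LUC cells with erastin and DHA (SE 0.06 or 0.07, largest edgeR adjusted p = 2.8e-10). Under library size scaling the third of these, erastin in sh-LUC cells, was 1.09 (adjusted p = 3.0e-05), and the others were not called, at 0.17 (0.654), 0.41 (0.238) and 0.57 (0.162). EPAS1, a hypoxia inducible factor, rose in the same order by 0.55, 0.44, 0.61 and 0.23 (SE 0.06 or 0.07, largest edgeR adjusted p = 0.00242). None of these 4 was called under library size scaling, with values of 0.24 (adjusted p = 0.519), 0.37 (0.293), 0.50 (0.0752) and 0.28 (0.643). The erastin changes in sh-IGFBP6 cells without the shallow library were 0.55 for EPAS1 and 0.51 for ATF4. HIF1A, another hypoxia inducible factor, named here after its values were seen, rose with erastin in sh-IGFBP6 cells by 0.31 (SE 0.06, edgeR adjusted p = 1.7e-05) and was not called in sh-LUC cells, at 0.04. With DHA HIF1A fell by 0.27 in sh-IGFBP6 cells (SE 0.06, edgeR adjusted p = 9.1e-05) and by 0.19 in sh-LUC cells (SE 0.06, edgeR adjusted p = 0.00713). None of the HIF1A calls held under library size scaling, with -0.05 (adjusted p = 0.924) for erastin in sh-IGFBP6 cells and -0.35 (0.343) and -0.14 (0.888) for DHA.

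Of the 11323 tested genes that averaged 5 CPM or more, those whose 6 group means of log2 CPM came nearest to LPIN1, by root mean square difference after centring, were TM7SF2 and HMGCS1, both of cholesterol synthesis, at 0.0763 and 0.0874. The SD of the LPIN1 group means was 0.61. The nearest to PLIN2, whose SD was 1.13, were GCLM and TRIM16L at 0.411 and 0.412, a looser likeness. GCLM makes a subunit of the enzyme that starts glutathione synthesis. The nearest to LIPG, whose SD was 2.42, were NOX5 and SYT12 at 0.340 and 0.352. ATF1 was nearest to PNPLA2 at 0.0519 and CDK6 to ABHD5 at 0.0681, and both remained nearest without the shallow library, at 0.0604 and 0.0687. Without it TM7SF2 stood at 0.0725 and HMGCS1 at 0.0993 from LPIN1, GCLM at 0.424 and TRIM16L at 0.421 from PLIN2, and NOX5 at 0.367 and SYT12 at 0.588 from LIPG, and none of the 3 genes had the same nearest gene as before. In rank, TM7SF2 and HMGCS1 were then 2 and 4 for LPIN1, GCLM and TRIM16L 3 and 2 for PLIN2, and NOX5 and SYT12 2 and 19 for LIPG. The nearest gene to PLIN3, DGAT1, HILPDA and LIPE also changed without that library, and none is named for them.

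**Figure D5:**
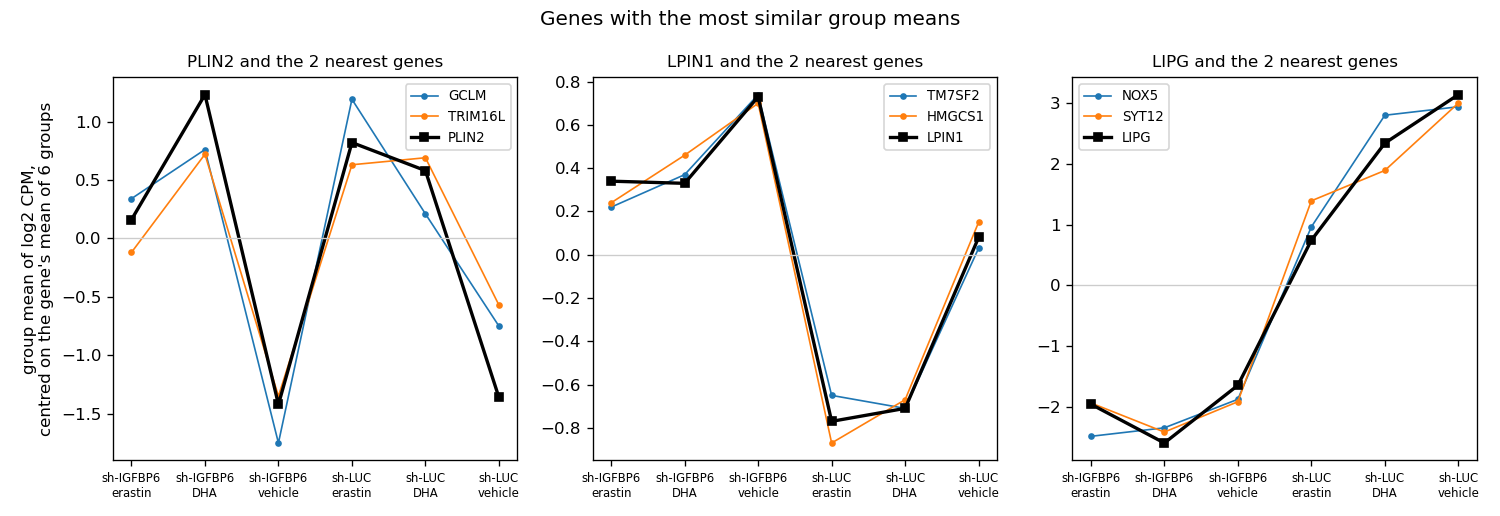
Group means of log2 CPM, centred on each gene's mean over the 6 groups (vertical axis), for PLIN2, LPIN1 and LIPG (black squares) and the 2 genes nearest to each (coloured), across the 6 groups. Nearest refers to all 18 libraries. In the LPIN1 panel the 3 lines lie close together, with differences of 0.0763 and 0.0874 for TM7SF2 and HMGCS1.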

How the data were processed

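RNA of 18 libraries (6 groups of 3) was measured after ribosomal RNA depletion, per the labels' protocols. The submitters' processing notes name cutadapt 4.4, STAR 2.7.7a, featureCounts and GRCh38. The authors deposited raw counts per gene. Neither annotation release nor strandedness is given in the sources used here. Reads of overlapping antisense genes therefore cannot be told apart. Such overlaps cover 17.8% of the exon bases of PLIN3, 10.4% of PNPLA2, 9.6% of LIPE, 3.36% of DGAT1, 2.25% of ABHD5, 0.97% of LPIN1, and 1.48% and 5.35% of DGAT2. Genes on the same strand overlap 10.7% of DGAT1, and 8.45% and 8.99% of HILPDA.

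1 gene with blank counts and 2 lines naming no gene, at most 0.0108% of a library, were left out. Gene positions and merged exon lengths came from GENCODE 29 on GRCh38. The count model was edgeR 4.0.16 under R 4.3.3, with filterByExpr (minimum count 10, total 15), TMM scaling, 1 coefficient per group, robust quasi-likelihood, a common dispersion of 0.00395 and 12 residual degrees of freedom. P-values were adjusted by Benjamini-Hochberg over 15189 genes, with a threshold of 0.05. CPM use TMM effective library sizes, intervals cover 95% on the residual degrees of freedom, and the depth of each library sets the precision. The SE is the size of the log2 fold change over the square root of the test's F, and for small F it comes from the fitted variance. The test uses more degrees of freedom than the intervals, so an interval can reach 0 where the unadjusted p is below 0.05. The model was tested on counts simulated from the sh-LUC vehicle profile in every library, with the spread fitted to these data. The outcome is not given here, and a test of that kind cannot check the spread itself. The excess of mitochondrial ribosomal RNA in the shallow library was not simulated, so that test does not bear on its scaling. No 2 libraries were identical.

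Alternatives were other scalings, filters and sets of libraries, a fit with the replicate number as a block, and DESeq2 1.42.0. The 10 genes and the lists were chosen with earlier results of these data known. From each list the genes open to naming were, per comparison and direction, the 3 called genes with the smallest p and a mean of at least 5 CPM. At most 2 genes are named as nearest to a gene, and a further one is not reported here. The comparison of the untreated lines was treated in the same way, and further values of a named gene are given where they bear on it.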

Additional observations from a re-analysis of the deposited data

Results flagged for a closer look

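The response to a compound differed between the lines, by a test of the difference itself, in 12 cases. These are log2 fold changes of sh-IGFBP6 minus those of sh-LUC, with edgeR adjusted p. For erastin they were -0.70 for PLIN2 (3.5e-06), 0.92 for PLIN3 (3.9e-13), -1.46 for HILPDA (3.2e-04), 0.36 for PNPLA2 (0.00327), -0.41 for ABHD5 (0.0205), 0.60 for LPIN1 (2.0e-06) and 1.46 for LIPG (0.0346). For DHA they were 0.66 for PLIN2 (8.6e-06), 0.43 for DGAT1 (0.0306), -1.57 for DGAT2 (SE 0.56, 0.0320), 0.31 for PNPLA2 (0.0154) and 0.39 for LPIN1 (0.00235). PLIN3 is the gene among them called in opposite directions in the 2 lines under the same compound.

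In the sh-IGFBP6 libraries compared, the LIPG value rests on 1 to 11 counts per library and the DGAT2 value on 4 to 17. The DGAT2 difference was lost without sh-LUC vehicle replicate 2, sh-IGFBP6 vehicle replicates 1 or 3, sh-LUC DHA replicate 3 or sh-IGFBP6 DHA replicate 2 (-1.53 to -1.21, adjusted p 0.0576 to 0.175), and with scaling by library size only (-1.71, with an adjusted p at the threshold). Of the 12 differences, that of HILPDA with erastin was the 1 still called under that scaling. Without replicate 3 of sh-IGFBP6 erastin the erastin values were -0.73, 0.91, -1.47, 0.34, -0.43, 0.60 and 1.35 in the order above, and the last was no longer called (adjusted p = 0.0598).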

How the results depend on the processing

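In 2316 values of the 10 genes under 26 other settings, 2215 stayed on their side of the threshold, of which 44 changed sign without being called in either. 95 calls were lost and 5 were gained. The 1 called value that changed sign was PNPLA2 with erastin in sh-IGFBP6 cells, at -0.02 with scaling by library size only; among the named list genes ACSL5 and HIF1A with erastin in sh-IGFBP6 cells (-0.08 and -0.05) and NCEH1 for DHA against erastin there (0.05) did so under that setting. The spread is estimated over all 18 libraries together, so the shallow library also enters the p-values of comparisons that do not use it. Scaling by library size only counts the mitochondrial ribosomal RNAs of that library. It gave medians over all genes of -0.19 for erastin and -0.08 for DHA in sh-IGFBP6 cells, -0.12 and 0.06 in sh-LUC cells, 0.11 with vehicle, -0.06 and -0.14 for the line differences in the erastin and DHA responses, and 0.10 and 0.17 for DHA against erastin in sh-IGFBP6 and sh-LUC cells.

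With scaling by library size only, the genes called among the 10 were 2 for erastin in sh-IGFBP6 cells (1 higher, 1 lower), 2 for DHA in sh-IGFBP6 cells, 3 for DHA in sh-LUC cells, 1 for the line difference with erastin, 0 with DHA (1 at an unadjusted p below 0.05 in edgeR; DESeq2 called 2) and 3 for DHA against erastin in sh-IGFBP6 cells. Over all genes it called 2728 (630 higher, 2098 lower, against 2226 and 2178), 2579 (859 and 1720, against 2644 and 2558), 756, 1327 (588 and 739, against 2147 and 1826), 1041 (276 and 765, against 1581 and 1543) and 1541 (973 and 568, against 1986 and 1942) in those comparisons, and 4571 (1457 and 3114, against 3256 and 3711) for erastin in sh-LUC cells. Without a filter on low counts, 2 of the 10 were called for the line difference with DHA, as with DESeq2. Fitting only the groups compared called 3 of 8 for DHA in sh-IGFBP6 cells, where DGAT2 and LIPG did not pass the filter. DESeq2 called 1565 genes for DHA in sh-LUC cells and 2422 for DHA against erastin in sh-IGFBP6 cells. The cause was not tested.

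With each library left out in turn, 3 to 6 of the 10 were called for DHA in sh-IGFBP6 cells, 1 to 5 for the line difference with DHA, and 2592 to 4029 of all genes for DHA against erastin in sh-IGFBP6 cells, the lowest without erastin replicate 1. Libraries with the same replicate number did not deviate together (1 of 45 pairs had a correlation over 0.1, range -0.04 to 0.11). With a replicate block the DGAT2 call for DHA against erastin in sh-IGFBP6 cells was lost (-1.13, adjusted p = 0.0592), and no other call of the 10 genes changed. Depth limits DGAT2, HILPDA and, in sh-IGFBP6 cells, LIPG.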
